A study of Rattus norvegicus with 35 samples.

Results

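The comparison set 14 single rat cells with Foxa2 transcripts against 5 single cells without them. All 19 were labelled as converted hypoblast stem cells, and 1 of them, C46, went against that label by several of its markers. They were taken from the 34 single cells of a series of 35 libraries, the other library being a bulk population control. A cell entered when at least 4000 transcript records had a read. It was called Foxa2-positive at 5 CPM or more and Foxa2-negative below that, where CPM is the read count divided by the total reads of that cell, on the usual CPM scale. All cells were handled alike: rat embryonic stem cells were converted in medium that held the growth factors PDGF and EGF, the cytokine LIF and 2% serum, and were collected at day 12. No genotype, strain, stem cell line, culture number or batch was named in the labels, so the cells counted as 1 sample. The groups had no replicates. No p-value is given, and every SD is a spread between cells.

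The hypoblast (primitive endoderm) covers the inner cell mass of the blastocyst and forms the visceral and parietal endoderm of the yolk sac. Visceral endoderm is an absorptive epithelium that takes up protein through the receptors cubilin and megalin and secretes apolipoproteins and other serum proteins. Parietal endoderm is a migratory, mesenchyme-like cell that lays down a thick basement membrane of laminin and type IV collagen. Foxa2 encodes a forkhead transcription factor that opens chromatin at endoderm genes and is known in the embryo from visceral endoderm, definitive endoderm and the midline. The question was whether cells with Foxa2 transcripts held more of the visceral and less of the parietal features.

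Foxa2 counts were low even in the positive cells. They held between 2 and 82 reads, 395 in all, and the level was 98.4 ± 90.5 CPM (SD, n = 14 cells). The lowest value was 9.02 CPM, the median 75.7 and the highest 326. The cells just inside the threshold were C40 with 2 reads (9.02 CPM) and C13 with 3 reads (10.2 CPM). On the other side no cell had any read, so C26, C32, C33, C37 and C46 all lay at 0 CPM. A count of 0 allows up to 3 reads. That is 8.29 CPM in C26, 9.11 in C33, 9.27 in C32, 12.3 in C37 and 31.5 in C46, the shallowest of the 19 cells. The recorded level of C40 therefore lay below what a 0 allows in every negative cell but C26. For C13 it lay below what a 0 allows in C37 and C46, and for C72 (21.5 CPM) in C46. These values chose the groups and carry no comparison. The bulk library held 0 Foxa2 reads, which allows up to 63.7 CPM. Of the other FOXA genes, Foxa1 had 2 reads in the positive cells and 0 in the negative cells, and Foxa3 had 0 in both.

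**Figure D1:**
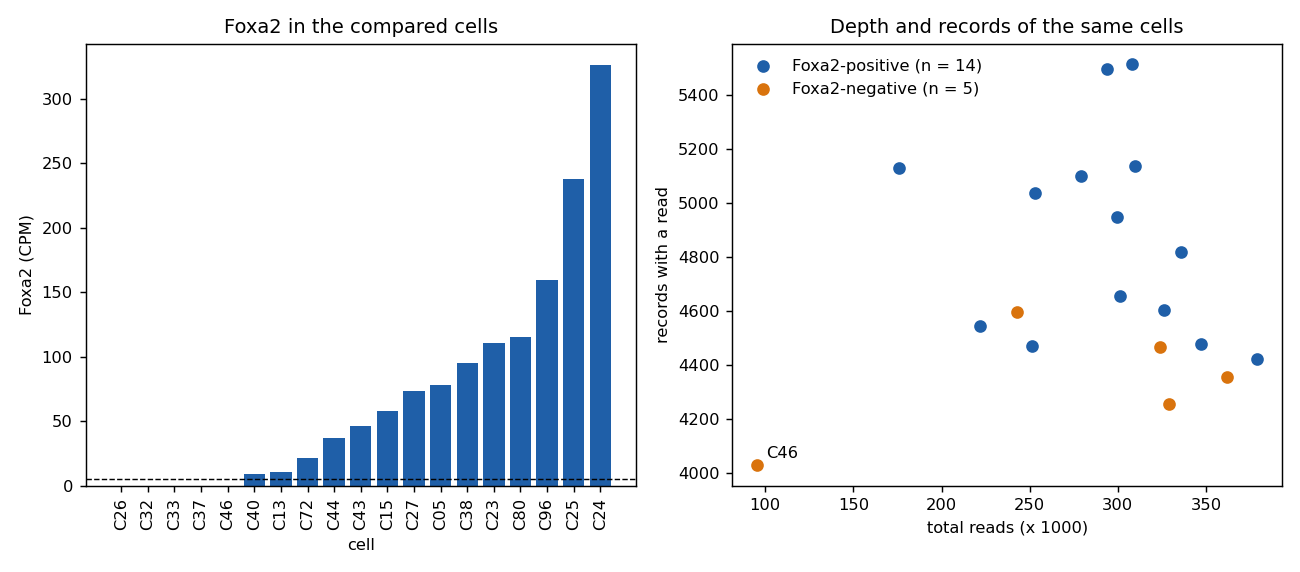
Left, Foxa2 level in CPM (vertical axis) in each of the 19 compared cells (horizontal axis), with a dashed line at 5 CPM. Right, total reads against the number of records with a read, 1 point per cell. The 5 Foxa2-negative cells had no Foxa2 read and at most 4596 records, and C46 stood apart at 95359 reads.

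The groups differed in the number of records detected. Foxa2-positive cells held 4423 to 5514 records with a read (median 4882.5), against 4028 to 4596 (median 4357) in Foxa2-negative cells. Total reads were 175639 to 379141 (median 300491) in the positive cells and 95359 to 361960 (median 323680) in the negative cells. The part of this difference in the results below was not tested, and shares at an equal depth of 100000 reads, which leaves out C46, are given for the genes the results turn on.

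The Foxa2-negative cell C46 stood apart. It was the only compared cell with Col1a2, a fibrillar collagen gene of fibroblasts, with 24 reads (252 CPM). It held 0 reads of Apoe, Gata4, Sox17, Cubn and Rhox5, and its levels of Sparc (273 CPM) and Ctsl (357 CPM) were the lowest of the 5 negative cells. A 0 there allows up to 31.5 CPM, above the Sox17 levels of C26 (11.1 CPM) and C32 (18.5 CPM). Cubn was also at 0 in C37, and Gata6, Dab2 and Klf5 had 2 reads each in C46. Vim, at 1510 CPM, and Fn1, at 859.9 CPM, were highest there among the 5, and S100a4, a mesenchymal gene, reached 902 CPM in the negative group and had 0 reads in the positive cells. The summed level of the 17 measured fibroblast and mesenchymal genes was 2401 CPM in C46, the highest of the negative group, where the median was 117 CPM. In the positive cells it ranged from 39.6 to 956 CPM. Col1a1, Col3a1, Lum, Dcn and Thy1 had 0 reads in all 19 cells. Of the epithelial genes, Krt19 (115 CPM) and Tjp1 (126 CPM) were highest in C46 among the 5 negative cells. Cdh1 was at 231 CPM there, and Krt18, Epcam and Cldn6 had 0 reads. Results are given with and without C46 where it matters.

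Across the genes compared, most records past the limits below were higher in the Foxa2-positive cells. Levels were compared as the ratio of mean CPM, with 5 CPM added to each mean. The comparison took in the 6116 records with a mean of at least 10 CPM and with 5 CPM or more in at least 5 of the 19 cells, Foxa2 itself left out. Of these, 1628 (26.6%) had a mean at least 2-fold higher in the positive cells and 785 (12.8%) at least 2-fold higher in the negative cells. A stricter rule also asked that the share of cells with 5 CPM or more differ by at least 40 percentage points in the same direction. It was met by 384 records (6.28%) in favour of the positive cells and 68 (1.11%) in favour of the negative cells. The entry filter leaned the same way. A record found only in positive cells needed 5 of the 14 to enter, and a record found only in negative cells needed all 5. With no filter beyond 1 read the strict counts were 408 and 132. For 0 of the 6116 records did the 14 positive cells and the 5 negative cells separate without overlap. The median log2 ratio over all 6116 records was 0.22, so a typical record was slightly higher in the positive cells, and list medians below are read against it. Without C46 it was 0.26 over 6001 records, with 1738 and 748 past 2-fold, and list medians without C46 are read against that. When the positive group was cut to its 6 cells with at most 4700 records, a setting added with results in view, the strict counts became 279 and 112.

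Few visceral endoderm genes had enough reads, and as a group they had no stable direction. Of 41 listed genes 40 were in the table, and 7 had enough reads to compare. Of these 7, 0 were at least 2-fold higher in the positive cells (26.6% of all records were) and 1, Cubn, was at least 2-fold higher in the negative cells (12.8% of all records were). Their median log2 ratio was −0.42, beside 0.22 for all records. Without C32 the median turned to 0.26, so its sign rested on that cell, and it turned to 0.65 over all 34 cells, 0.12 with no filter and 0.022 for mean log2(CPM + 1). Without C46 it was −0.73, with Dab2 as a further gene past 2-fold in favour of the negative cells. A total of 16 measured genes of these lists had no read in any of the 19 cells. Of these, 11 belonged to the 17 genes of serum proteins and lipid carriers, among them Ttr, Apoa1, Apob, Rbp4, Fga and Serpina1, and Apoe was the only one of the 17 with enough reads.

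The uptake receptors of visceral endoderm gave the clearest values. Cubn encodes cubilin, an endocytic receptor for vitamin and protein cargo. In the negative cells it was at 1115 CPM in C32, 1094 in C33, 682 in C26 and 0 in C37 and C46. In the positive cells the lowest level was 0, the median 142 and the highest 623 CPM. So 3 of the 5 negative cells lay above every positive cell and the other 2 lay at the bottom. The means were 578 ± 555.4 CPM (SD, n = 5) and 158 ± 167 CPM (SD, n = 14), a ratio of 3.59 in favour of the negative cells and 4.48 without C46. By detection the order was the other way, with 13 of 14 positive cells (92.9%, exact Clopper-Pearson 95% interval 66.1% to 99.8%) and 3 of 5 negative cells (60%, 14.7% to 94.7%) at 5 CPM or more. At an equal depth of 100000 reads, which leaves out C46, the counts were 11 of 14 and 3 of 4. The difference of the mean log2(CPM + 1) was 0.022 in favour of the positive cells, so the direction for Cubn depends on whether levels or their logarithms are averaged.

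Dab2 encodes the adaptor that links these receptors to clathrin. It was at 1354 CPM in C26, 717 in C33, 525 in C32, 399 in C37 and 20.97 in C46. Positive cells had a lowest level of 0, a median of 275 and a highest of 911 CPM. One negative cell, C26, was above all positive cells, and the ratio of means was 1.86 in favour of the negative cells, or 2.30 without C46. Lrp2, the gene of megalin, was at 321 CPM in C32, 234 in C33, 8.23 in C37 and 0 in C26 and C46, within the positive cells' range of 0 to 340.5 CPM (median 19.5). Ezr, which encodes the microvillus linker ezrin, was found in all 19 cells. Its mean was 416 ± 317 CPM (SD, n = 5) in the negative and 309 ± 194 CPM (SD, n = 14) in the positive cells.

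Apoe encodes a lipid carrier. All 14 positive cells held it, from 704 to 3893 CPM (median 1263). Among the negative cells it was at 2655 CPM in C37, 2099.5 in C33, 939 in C26, 692 in C32 and 0 in C46. The ratio of means was 1.38 in favour of the positive cells with C46 and 1.11 without it. Rhox5, a homeobox gene of extraembryonic endoderm, was nearly level, with means of 264 CPM in positive and 257 CPM in negative cells. Dkk1, a secreted Wnt inhibitor of the anterior visceral endoderm, was found in 5 of 14 and 1 of 5 cells. Ihh and Pdzk1 reached a mean of 10 CPM but were found in fewer than 5 of the 19 cells. Of Ihh, which encodes the hedgehog ligand of visceral endoderm, C40 held 94% of the summed CPM.

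**Figure D2:**
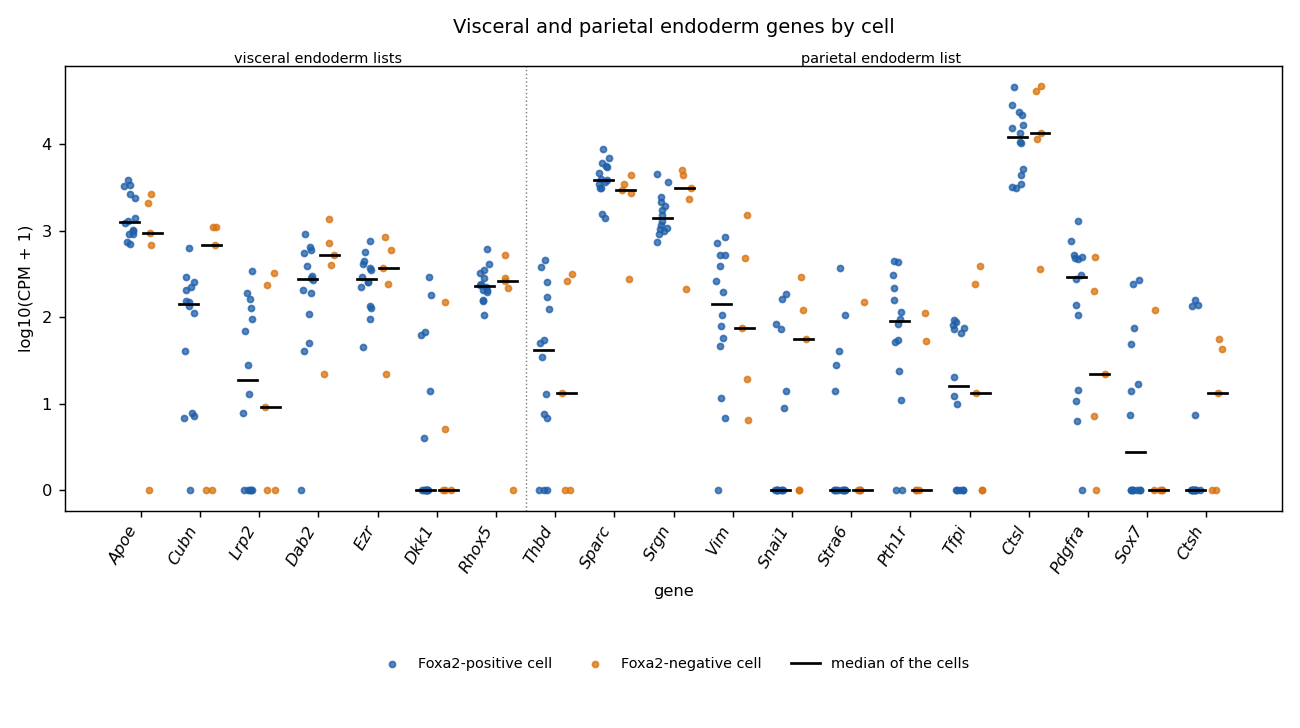
Level of the 7 visceral and 12 parietal endoderm genes with enough reads, as log10(CPM + 1) on the vertical axis, in each Foxa2-positive and Foxa2-negative cell, with bars at the median of the cells. For each gene the groups overlap, and Cubn has 3 negative cells above every positive cell and 2 at 0.

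Parietal endoderm genes were split. Of 18 listed genes 17 were in the table and 12 had enough reads to compare. Pth1r and Pdgfra were at least 2-fold higher in the positive cells, Snai1 and Tfpi were at least 2-fold higher in the negative cells, and 8 were past neither limit. These shares, 2 of 12 each way, stand beside 26.6% and 12.8% of all records. The median log2 ratio of the 12 was 0.14, and it lay between −0.53 (without C23) and 0.51 (without C32) with any 1 cell left out. It was 0.23 without C46, when Pdgfra fell to a ratio of 1.95 and Srgn reached 2.06 in favour of the negative cells.

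Pth1r encodes the receptor for parathyroid hormone-related peptide, a signal known to drive parietal endoderm formation. It was at 111 CPM in C37, 52.5 in C26 and 0 in C32, C33 and C46. Positive cells ranged from 0 to 451 CPM with a median of 89.1, and 6 of 14 lay above every negative cell. The mean was 142 ± 153 CPM (SD, n = 14) against 32.7 ± 49.4 CPM (SD, n = 5), a ratio of 3.90, or 3.21 without C46 and 8.13 without C37. It was detected in 12 of 14 positive cells (85.7%, interval 57.2% to 98.2%) and 2 of 5 negative cells (40%, 5.27% to 85.3%), and at 100000 reads in 11 of 14 and 2 of 4. With all 19 cells Pth1r was the 1 gene of the visceral and parietal lists past both rules. It no longer passed the 40-point rule without C46 (35.7 points) or at 100000 reads (28.6 points).

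Pdgfra encodes the PDGF receptor of the primitive endoderm, whose ligand was in the medium. Negative cells held 502 CPM in C37, 199 in C26, 20.97 in C46, 6.18 in C32 and 0 in C33. Positive cells ranged from 0 to 1302 CPM with a median of 293, and 3 of them lay above every negative cell. The ratio of means was 2.36 in favour of the positive cells. It fell below 2 without C80 (1.87) or C46 and was 5.78 without C37. It was found in 13 of 14 and 4 of 5 cells, and at 100000 reads in 13 of 14 and 2 of 4. Sox7, a parietal endoderm transcription factor, was found in 7 of 14 positive cells and in 1 negative cell, C37, at 119 CPM.

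Among the parietal genes higher in negative cells, Snai1 encodes a repressor of epithelial genes. It was at 288 CPM in C37, 122 in C26, 54.7 in C33 and 0 in C32 and C46. In 8 of the 14 positive cells it stayed under 5 CPM, and the highest was 184 CPM. The ratio of 2.33 in favour of the negative cells fell to 1.17 without C37. Tfpi, a clotting inhibitor gene, was at 387 CPM in C26, 241 in C46, 12.4 in C32 and 0 in C33 and C37, above the positive cells' highest value of 92.1 CPM in 2 cells. Its ratio was 3.21 in favour of the negative cells, 2.53 without C46 and 1.65 without C26. Of the 3 most abundant parietal genes, Ctsl and Srgn had the higher mean in negative cells and Sparc in positive cells, all below 2-fold. Ctsl, the cathepsin L gene, averaged 22821 ± 20400 CPM (SD, n = 5) against 14678 ± 12147 CPM (SD, n = 14), and Srgn, a proteoglycan gene, 3026 ± 1904 against 1805 ± 1112 CPM.

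The other parietal genes were past neither limit. Sparc, a matrix protein gene of parietal endoderm, averaged 4403 ± 2028 CPM (SD, n = 14) in positive and 2768 ± 1536 CPM (SD, n = 5) in negative cells, and 6 positive cells lay above every negative cell. Vim, the vimentin gene of mesenchymal cells, was 1.55-fold higher in the negative cells with C46 and 1.81-fold higher in the positive cells without it, so its direction rested on that cell. Thbd, the thrombomodulin gene, was at 313 CPM in C37, 260 in C32, 12.2 in C33 and 0 in C26 and C46, within the positive cells' range of 0 to 455 CPM. Stra6, a retinol transporter gene, was found in 5 positive cells and in C32, and Ctsh, a cathepsin gene, in 4 positive and 3 negative cells. Plat, a plasminogen activator gene, had reads in C15 alone.

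The 2 sides of the yolk sac did not order the cells by Foxa2. The mean log2(CPM + 1) over the 7 visceral genes was 5.10 to 8.07 in the positive cells. In the negative cells it was 8.99 in C32, 7.78 in C33, 6.73 in C26, 5.99 in C37 and 1.27 in C46. The mean over the 12 parietal genes was 4.12 to 7.87 in the positive cells and 4.39 to 6.87 in the negative cells. The highest visceral value of the 19 cells was thus in a Foxa2-negative cell, and so was the lowest. Parietal minus visceral values ranged from −2.43 to 2.55 in the positive and from −3.28 to 3.11 in the negative cells, with means of −0.55 in both groups. Without C46 the negative mean was −1.47 ± 1.88 (SD, n = 4), beside −0.55 ± 1.52 (SD, n = 14) in the positive cells, and the ranges still overlapped.

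**Figure D3:**
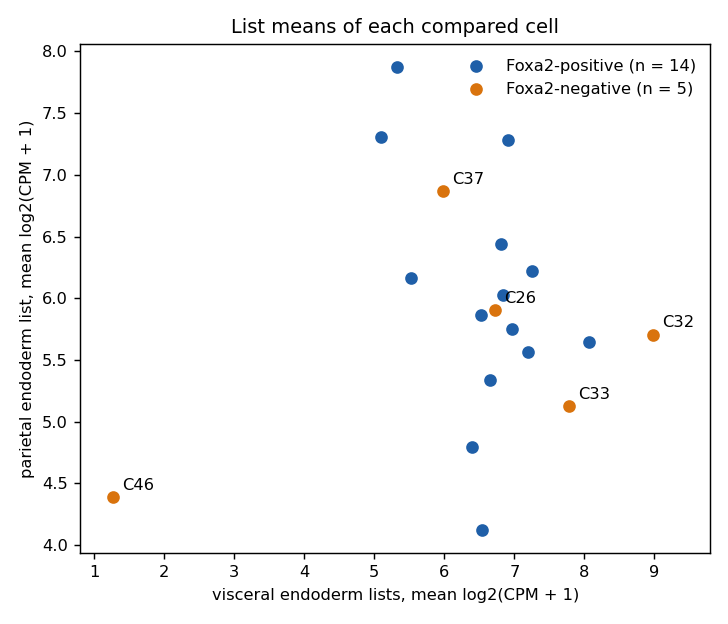
Mean log2(CPM + 1) of the 7 visceral (horizontal axis) and 12 parietal endoderm genes (vertical axis) in each of the 19 cells, with the negative cells labelled. Positive and negative cells share the middle of the plot, C32 has the highest visceral mean (8.99) and C46 the lowest (1.27).

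Basement membrane genes were abundant in both groups. Of 8 measured genes, 7 had enough reads, 1 (Nid2) was at least 2-fold higher in the positive cells and 1 (Fbln1) in the negative cells, beside 26.6% and 12.8% of all records. The list median was 0.50, and 0.23 without C46. Lama1, a laminin chain gene, averaged 3631 ± 1659 CPM (SD, n = 14) in positive and 1970.4 ± 1475 CPM (SD, n = 5) in negative cells, where C37 held 4256 CPM and C46 held 126 CPM. Lamc1 had means of 3360 and 2343 CPM, and Col4a1, a type IV collagen gene, 2321 and 2414 CPM. Nid2, which encodes a linker of laminin and collagen networks, was found in 6 of 14 positive cells and had 0 reads in the negative cells, and C23 held 52% of its summed CPM. Fbln1, a matrix glycoprotein gene, was found in all 5 negative cells from 10.5 to 214 CPM and in 11 positive cells, up to 135 CPM. Its ratio of 2.60 in favour of the negative cells fell to 1.86 without C37.

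Collagen folding genes, many of which encode enzymes that hydroxylate collagen, did not move together. Of 10 with enough reads, 3 (Plod2, Plod1 and P4ha2) were at least 2-fold higher in the positive cells, near the 26.6% of all records, and 0 in the negative cells (12.8% of all records). Other hydroxylase genes of the list were past neither limit, with log2 ratios of −0.93 for P3h1, 0.02 for Plod3 and 0.60 for P4ha1. With 1 cell left out, P3h1 lay between −2.02 and 0.97, and P4ha1 between 0.20 and 1.09. The list's median, 0.24, was near that of all records, and without C46 it was 0.01. Plod2, a lysyl hydroxylase gene, was found in 13 of 14 positive cells (median 104 CPM, highest 271) and in 1 negative cell, C32, at 30.9 CPM. At 100000 reads the counts were 13 of 14 and 1 of 4. The ratio of means was 11.2, 9.82 without C46 and 24.99 without C32. Plod1, a related lysyl hydroxylase gene, was at 89.6 CPM in C32, 30.4 in C33, 20.97 in C46 and 0 in C26 and C37, against a median of 129 and a highest of 504 CPM in positive cells. P4ha2, a prolyl hydroxylase subunit gene, was at 387 CPM in C37, 100.3 in C33, 52.5 in C32, 19.3 in C26 and 0 in C46, within the positive cells' range of 0 to 794 CPM (median 402). Serpinh1, the collagen chaperone gene, had means of 347 and 375 CPM in positive and negative cells.

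Core hypoblast factors were present in both groups. Gata6 was found in 13 of 14 and 5 of 5 cells, at means of 289 and 230 CPM, and Gata4 in 14 and 4 cells, at 342 and 241 CPM. Of 8 genes of this list with enough reads, Klf4, Lifr and Sox17 were at least 2-fold higher in the positive cells and 0 in the negative cells, beside 26.6% and 12.8% of all records. The list median was 0.41 and, without C46, 0.11. Klf4, a Krueppel-like factor known from the LIF response of stem cells, was at 31.5 CPM in C46, 28.8 in C37, 18.2 in C33, 5.53 in C26 and 0 in C32. Positive cells held 7.91 to 378 CPM (median 91.3), and the ratio of means was 5.85. Lifr, the LIF receptor gene, was found in 8 of 14 positive cells, up to 416 CPM in C72, and had 0 reads in the negative cells. Its ratio of means was 13.6, or 8.17 without C72, a value that depends on the 5 CPM added. At 100000 reads Lifr was in 7 of 14 and 0 of 4 cells, and Klf4 in 13 of 14 and 2 of 4. Sox17, an endoderm factor gene, had a ratio of 2.04 that fell to 1.69 without C46.

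Epithelial genes were present on both sides. Of 11 with enough reads, Esrp1 and Spint1 were at least 2-fold higher in the positive cells and 0 in the negative cells, beside 26.6% and 12.8% of all records. The list median was 0.21, like that of all records. Esrp1, an epithelial splicing regulator gene, was found in 6 of 14 positive cells and had 0 reads in the negative cells, and C80 held 56.4% of its summed CPM. The ratio of Spint1, a protease inhibitor gene, was 2.16 with all cells and 0.95 without C43. Cdh1, the E-cadherin gene, was at 543 CPM in C37, 510 in C32, 231 in C46, 3.04 in C33 and 0 in C26, with means of 257 ± 263 CPM (SD, n = 5) in negative and 130.3 ± 166 CPM (SD, n = 14) in positive cells.

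**Figure D4:**
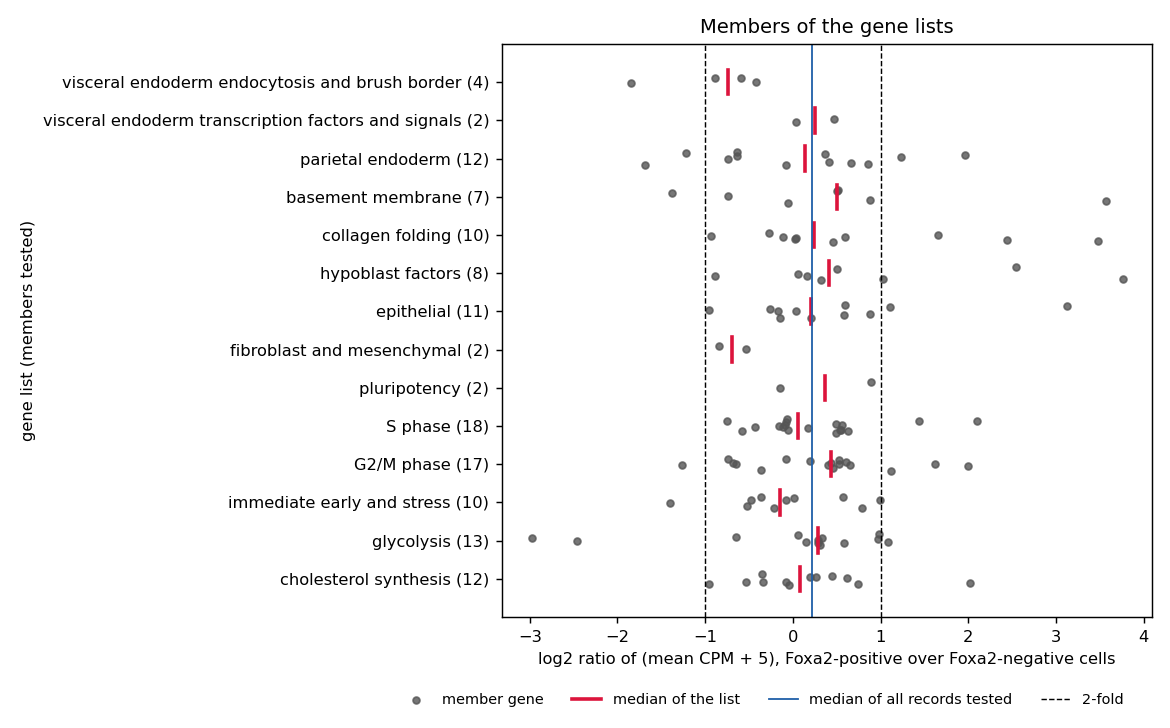
Log2 ratio of (mean CPM + 5), Foxa2-positive over Foxa2-negative cells, on the horizontal axis, for every member with enough reads of each gene list (vertical axis), with list medians in red, the median of all 6116 records in blue and 2-fold limits dashed. List medians run from −0.74 for the uptake genes of visceral endoderm to 0.50 for basement membrane genes, with the blue line at 0.22. The 2 fibroblast and mesenchymal genes, with a median of −0.69, also lie to its left.

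Most markers of other lineages had few reads, with exceptions in single positive cells. Of 10 listed trophoblast genes, 0 of the 8 measured had enough reads, and all had 0 reads in the negative cells. Plac1, a placental gene, was found in 4 of 14 positive cells and reached 839 CPM in C40. Of 12 measured liver genes bound by FOXA factors in textbook accounts, 0 had enough reads, and 9, among them Alb, Tat and Igfbp1, had no read in the 19 cells. In the list of streak, definitive endoderm and midline genes only Sox17 had enough reads, and Shh, Tbxt, Cxcr4 and Nodal had no read. Of 10 measured pluripotency genes, 2 could be compared, with 0 past 2-fold either way. Lin28a, an RNA-binding protein gene of stem cells, was found in 13 of 14 positive and 5 of 5 negative cells, up to 1222 CPM. Dppa3, a germ cell and stem cell gene, was found in 4 positive cells, reached 906 CPM in C72 and had 0 reads in the negative cells. Plac1, Lin28a and Dppa3 were chosen after their values were seen.

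The leading records were picked by a rule: past both limits, past 2-fold whichever cell was left out, and then the largest difference in the share of cells. Leaving out any 1 of the 19 cells kept 351 of the 384 records past 2-fold in favour of positive cells and 34 of the 68 in favour of negative cells. With Foxa2 cut at 50 CPM, 3 of the 10 leading records in favour of positive cells stayed past 2-fold, and 9 of the 10 in favour of negative cells. With all 34 cells these numbers were 7 and 8. Pds5b encodes a regulator of cohesin, the ring that holds sister chromatids. It was found in 12 of 14 positive cells (median 50.3 CPM, highest 458) and had 0 reads in the negative cells. Its ratio of means was 18.2, or 12.4 without C80, a value that depends on the 5 CPM added. Its paralog Pds5a was found in 13 of 14 positive cells (median 80.5 CPM) and had 3 reads in 1 negative cell, C37. The plain ratio of means was 35.2 (Poisson 95% interval 12.04 to 171, for the 3 reads only). Tra2a, a splicing regulator gene, was found in 13 positive cells (median 161 CPM) and in C26 with 3 reads, a plain ratio of 132 (interval 45.2 to 641). With 5 CPM added to each mean, as for the other ratios, the values were 12.3 for Pds5a and 33.6 for Tra2a. Rpe, a pentose phosphate enzyme gene, was found in all 14 positive cells from 13.6 to 445 CPM and in C33 at 36.5 CPM.

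Sh3bp4, whose product takes part in receptor endocytosis, was also in all 14 positive cells (7.17 to 435 CPM) and in C37 at 24.7 CPM. Copz2, a coat protein gene of Golgi vesicles, was found in 11 positive cells, up to 106 CPM, and had 0 reads in the negative cells. Cd2ap, a scaffold gene of endocytosis and actin, was found in 13 positive cells (median 70.5 CPM) and in C26 at 41.4 CPM. Scamp2, a vesicle carrier gene, was found in 13 positive cells and in C46 alone of the negative cells, at 147 CPM, so its ratio was 3.30 with C46 and 22.7 without it. Kank2, an adhesion-linked gene, was in 13 positive cells and in C32 at 154.5 CPM. In each of these records at most 1 negative cell was at 5 CPM or more, which the ranking by share of cells selects for. Leaving out that cell raised the ratio from 12.3 to 30.2 for Rpe (C33), from 10.8 to 21.4 for Sh3bp4 (C37), from 5.48 to 13.2 for Cd2ap (C26) and from 3.25 to 23.3 for Kank2 (C32). At 100000 reads, drawn from the same cells, the leading records of the positive cells were in 10 to 13 of 14 positive and at most 1 of 4 negative cells. Pds5b and Copz2, with 0 reads in the negative cells, entered the comparison through the positive cells alone. The same holds for Nid2, Lifr and Esrp1.

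Windows at the annotated starts of Foxa2 and of the first 3 records in each direction were searched for forkhead motifs, since Foxa2 binds such sites. The motif TGTTTAC and the related letters TGTTTGC, as well as TATTTAC, were searched on both strands, in RefSeq windows of the GRCr8 build that run from 250 bases before to 50 bases after each gene's start. Matches were found for Pds5b and Sh3bp4, shown here because they are the windows with a match, with the motif in capitals. They lie at position −179 in Pds5b (chr12:5090692-5090991, plus strand) and −52 in Sh3bp4 (chr9:97107627-97107926, plus strand), counted to the motif's first base, with the start at 0. In the Pds5b window the letters atg, which can open a coding sequence, closely follow the start. The annotated Pds5b start may thus lie within the gene, and its window may not be the promoter.
Pds5b: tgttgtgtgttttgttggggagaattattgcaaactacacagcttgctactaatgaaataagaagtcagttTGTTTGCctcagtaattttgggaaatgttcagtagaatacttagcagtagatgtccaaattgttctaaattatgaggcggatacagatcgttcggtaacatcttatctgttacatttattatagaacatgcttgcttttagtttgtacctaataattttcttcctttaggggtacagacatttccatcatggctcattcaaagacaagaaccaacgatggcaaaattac
Sh3bp4: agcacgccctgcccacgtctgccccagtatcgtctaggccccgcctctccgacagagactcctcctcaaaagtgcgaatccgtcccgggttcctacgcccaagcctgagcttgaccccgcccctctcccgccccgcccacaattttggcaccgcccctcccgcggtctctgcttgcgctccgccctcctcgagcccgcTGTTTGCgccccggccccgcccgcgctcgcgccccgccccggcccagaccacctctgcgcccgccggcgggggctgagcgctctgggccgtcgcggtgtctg

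The windows of Foxa2, Rpe, Acsl4, Crat and Abhd14b held none of the 3 motifs in these letters. Of the genes past both rules in favour of positive cells, 327 had a window and 27 (8.26%) held a motif. The share was 6.54% of 5108 windows for all records tested, 3.39% of 59 windows for those in favour of negative cells, and 11.5% of all 33469 windows. TGTTTAC was in 3.78% of all windows, TGTTTGC in 4.88% and TATTTAC in 3.51%. A match describes letters, not binding.

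Among records higher in Foxa2-negative cells, Acsl4 came first. It encodes a long-chain acyl-CoA synthetase that activates arachidonic acid. All 5 negative cells held it, at 766 CPM in C32, 273 in C46, 222 in C37, 141 in C26 and 112 in C33. In 9 of the 14 positive cells it stayed under 5 CPM, and the highest was 334 CPM. At 100000 reads it was detected in 5 of 14 positive and 4 of 4 negative cells, and the ratio of means was 5.98, 3.73 without C32 and 10.5 without C27. Crat, the carnitine acetyltransferase gene, was at 471 CPM in C33, 340 in C26, 86.5 in C32, 65.9 in C37 and 0 in C46, and was found in 3 positive cells (highest 134 CPM). Its ratio was 10.7 and, with 1 cell left out, lay between 6.92 (without C33) and 21.4 (without C25). Atm, which encodes a kinase of the DNA damage response, was found in all 5 negative cells (6.18 to 146 CPM) and in 6 positive cells (up to 67.8 CPM).

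Ift22, a gene of transport within cilia, reached 133 CPM in negative and 17.9 CPM in positive cells, and 3 negative cells lay above all positive cells. Abhd14b, Cnot10, Tspan9, Lrrc42 and 1 record without a matched symbol were also among the leading records. Each was found in 4 of 5 negative cells and in 3 or 4 positive cells. For Cnot10, Tspan9, Lrrc42 and the record without a symbol the highest negative value was in C46. Without it the ratios fell from 6.52 to 3.20 for Cnot10 and from 6.18 to 2.09 for Lrrc42. They fell from 4.46 to 3.01 for Tspan9 and from 4.92 to 4.05 for the record without a symbol. At 100000 reads Atm, Ift22 and Lrrc42 were under the 40-point limit, with 5 of 14 and 3 of 4, 3 of 14 and 2 of 4, and 4 of 14 and 2 of 4 cells.

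**Figure D5:**
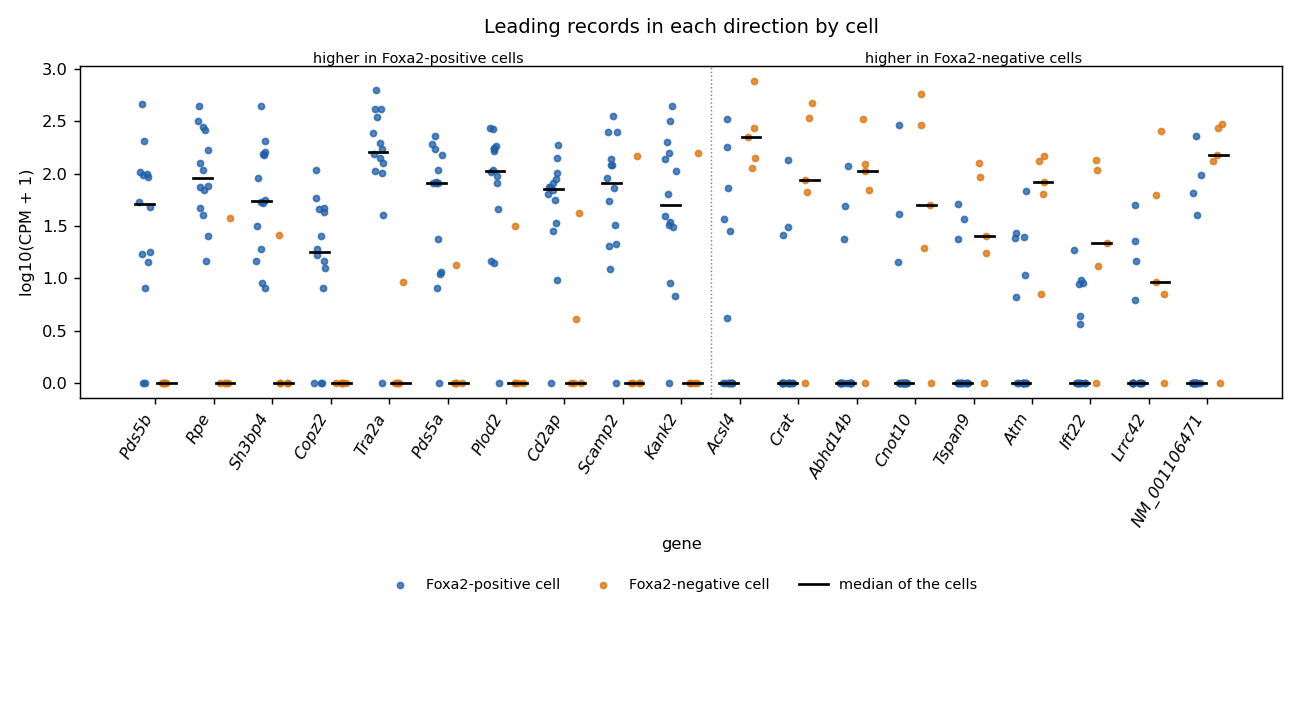
Level of leading records in each direction, as log10(CPM + 1) on the vertical axis, in each Foxa2-positive and Foxa2-negative cell, with bars at the median of the cells. The records were ranked by the difference in share of cells, which selects for the pattern shown. Those on the left have at most 1 negative cell at 5 CPM or more. Cd2ap also has reads in a further negative cell below that level. The positive cells' median lies at 0 for the records on the right.

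The 15 cells with fewer than 4000 records, which the comparison did not use, were split by the same Foxa2 rule, a step added with the results in view. Foxa2 was at 5 CPM or more in 5 of them and had 0 reads in 10. Of those 10, C14, C17 and C30 held Col1a2, at 1906, 308 and 2126 CPM, beside 252 CPM in C46. These cells are included in the values that follow. Of the 384 records past both rules in favour of positive cells, 343 had a read in these 15 cells, and 180 of those (52.5%) again had the higher mean with Foxa2, beside 46.8% of all 5699 records with a read. Of the 68 in favour of negative cells, 39 of 64 (60.9%) again had the lower mean with Foxa2, beside 53.2% of all. For the leading 10 in each direction the number was 4 of 10 both times. Pds5b (196 against 27.4 CPM) and Copz2 (93.1 against 0.80 CPM) were again higher with Foxa2. Plod2 (40.9 against 95.3 CPM), Tra2a (79.5 against 126 CPM) and Klf4 (72.5 against 916 CPM) were lower. Pth1r (70.0 against 20.5 CPM) and Pdgfra (63.0 against 23.99 CPM) were again higher with Foxa2, and Cubn (13.6 against 33.5 CPM) again lower. Snai1 (154 against 5.61 CPM) and Tfpi (295 against 190 CPM) went the other way here, being higher with Foxa2. So did Acsl4 (16.5 against 0.44 CPM) and Crat (18.3 against 0 CPM), from the leading records of the negative cells. These 15 cells held 349 to 3976 records and 6288 to 503044 reads, so single reads weigh heavily in some of them.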

How the data were processed

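RNA of single cells was extracted with a kit of the microfluidic C1 system, and libraries were made with Nextera XT, per the labels' protocols. The authors deposited whole-number read counts per RefSeq record, and TopHat2 and rn5 are named in the submitters' processing notes. Which counter, annotation and strand setting made the counts is not given in the sources used here. No molecular identifiers are mentioned, so intervals and floors cover counting error only. Even counts made up 62.1% to 70.4% of nonzero counts in the 19 cells, so reads are not independent and intervals are too narrow. Of 17201 records, 16215 matched a symbol in RefSeq's GRCr8 gene table. The others, with 4.11% of reads, stayed in the totals. CPM, means and ratios were computed with Python 3.11.15 and pandas 2.3.3, and TMM factors with edgeR 4.0.16. The comparison was tested on simulated data. Members, the 18 gene lists and the alternatives were chosen with earlier results of these data known. Named were the FOXA genes, visceral and parietal genes whose mean reached 10 CPM, and 10 leading records in each direction. Some named genes are not reported here. Other genes named are members of the fixed lists chosen after their values were seen. No doublet caller was run on the C1 chambers.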

Additional observations from a re-analysis of the deposited data

Results flagged for a closer look

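Among the 5 Foxa2-negative cells, 30 sets of values were checked for a cell far from the others, and 4 were found, where chance alone gives about 1 in 20 for normally spread values. Dkk1 was at 148 CPM in C32 and at most 4.12 CPM in the other 4 cells. Cd2ap was at 41.4 CPM in C26 and at most 3.09 CPM in the others. Acsl4 was at 766 CPM in C32 and at 112 to 273 CPM in the others. Lrrc42 was at 252 CPM in C46 and at most 60.8 CPM in the others.

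Foxa2 reads beyond the 3 that a count of 0 allows were also found in cells left out for having few records: 72 reads in C10, which missed the limit with 3976 records, 18 in C47 and 13 in C09.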

How the results depend on the processing

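No paired analysis was possible because the compared groups were cut from cells of 1 sample with no replicate numbers in the labels. Leaving out any 1 cell kept the 4 counts within 1.5 times. The counts of records at least 2-fold higher in positive and in negative cells, 1628 and 785, became 413 and 242 with 50 CPM added, 2598 and 1413 with no filter, and 708 and 345 at a mean of at least 50 CPM. The first became 921 with Foxa2 cut at 50 CPM (9 against 10 cells), 921 with positive cells of at most 4700 records and 2589 with cells of at least 4500 records. The last setting leaves 11 cells against 1, C37. The strict counts, 384 and 68, became 158 and 32 with 50 CPM added, and 148 and 22 at a mean of at least 50 CPM. The first became 123 with Foxa2 cut at 50 CPM and 1600 with cells of at least 4500 records. The second became 132 with no filter, 0 with all 34 cells, 342 with cells of at least 4500 records and 112 with positive cells of at most 4700 records. TMM scaling moved the median log2 ratio of all records from 0.22 to 0.08. Of the 384, 57 stayed past both rules with Foxa2 cut at 50 CPM and 155 with all 34 cells. The setting with all 34 cells includes C14, C17 and C30, which had no Foxa2 read and held Col1a2. Of the records past 2-fold, 67.5% were higher in positive cells, and 56.0% once the median log2 ratio was subtracted (a setting added with results in view, as was the cut at 4700 records), 57.2% with positive cells of at most 4700 records and 51.7% with Foxa2 cut at 50 CPM.

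Of 44 named genes, 21 changed the sign of their log2 ratio in at least 1 setting. Of these, 14 were below 2-fold to begin with, and 7 of the 14 turned with 1 cell left out: Lrp2 (−1.02 to 0.26), Dkk1 (−0.24 to 3.03), Rhox5 (−0.28 to 0.46), Thbd (−0.46 to 0.66), Vim (−0.95 to 0.85), Stra6 (−0.85 to 3.16) and Ctsh (−0.034 to 0.95). The other 7, at least 2-fold in the comparison as reported, changed as follows, and the cause was not tested. With cells of at least 4500 records, Cubn had 5.18, Tfpi 2.87 and Pdgfra −0.74. With the difference of mean log2(CPM + 1), Cubn had 0.022 and Ihh −0.20. With Foxa2 cut at 50 CPM, Ihh had −2.33, Scamp2 −0.32 and Kank2 −1.01. With all 34 cells, Snai1 had 0.87, Scamp2 −2.99 and Kank2 −0.37. With 1 cell left out, Ihh lay between −0.57 (without C40) and 1.89. The visceral median, −0.42, was 0.12 with no filter, 0.022 for mean log2(CPM + 1) and 0.65 with all 34 cells, and lay between −0.73 and 0.26 with 1 cell left out. The parietal median, 0.14, was −0.64 at a mean of at least 50 CPM, −0.25 with cells of at least 4500 records, −0.38 with positive cells of at most 4700 records and −0.077 with the median subtracted, and lay between −0.53 and 0.51 with 1 cell left out.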

Other observations

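Cell cycle, metabolic and stress genes were mostly within 2-fold between the 14 Foxa2-positive and 5 Foxa2-negative cells. Of 18 S phase genes with enough reads, 2 (Mcm3, a subunit of the replicative helicase, and Ung, a DNA repair glycosylase) were at least 2-fold higher in the positive cells and 0 in the negative cells, with a list median log2 ratio of 0.06. These and the following counts stand beside 26.6% and 12.8% of all records. Of 17 G2/M genes, Aurka, Plk1 and Cenpf were at least 2-fold higher in the positive cells and Ube2c in the negative cells. Without C37 the Ube2c ratio turned to 2.83 in favour of the positive cells, and without C05 that of Cenpf fell from 2.17 to 1.59. Of 12 cholesterol synthesis genes, Lss was past 2-fold in favour of the positive cells, and of 10 immediate early and stress genes, Fosb in favour of the negative cells, a direction that turned without C37.

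Of 13 glycolysis genes with enough reads, 10 had the higher mean in the positive cells and 3 in the negative cells. Over all records 58.6% had the higher mean in the positive cells. Past 2-fold, 1 of the 13 was in favour of the positive cells and 2 in favour of the negative cells. Hk2, a hexokinase gene, was at 180 CPM in C26, 108 in C32, 12.3 in C37 and 0 in C33 and C46, and at most 21.1 CPM in the positive cells. Slc2a1, a glucose transporter gene, was at 2799 CPM in C26 and 263 in C37, with 0 in C32, C33 and C46, and 10 of 14 positive cells held it, up to 417 CPM. Its ratio of 5.53 in favour of the negative cells thus rested on C26, and without it turned to 1.58 in favour of the positive cells. Tpi1, a later enzyme of the pathway, was past 2-fold in favour of the positive cells (1.62 without C44), and the median of the 13 genes was 0.28.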
